A study of Mus musculus with 30 samples.

Results

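The genes of the T cell receptor complex and its coreceptors were followed through bone marrow (BM) and adipose tissue macrophages (ATMs) of transplanted mice. The 10 genes were chosen by symbol, with earlier results of these data known. They were Cd3d, Cd3e, Cd3g, Cd4, Cd8a, Cd8b1, Cd28, Cd96, Lck and Zap70. All 10 were present among the 13353 genes of the BM table and the 17059 genes of the ATM table.

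RNA was sequenced from whole BM and from F4/80+ cells sorted from visceral adipose tissue, with 5 groups of 3 libraries in each tissue and 30 libraries in all. The groups were WT recipients and LepOb/Ob (Ob/Ob, leptin-deficient and obese) recipients treated with vehicle alone (Vehicle), with beinaglutide, an agonist of the GLP-1 receptor, at 3 mg/kg s.c. (GLP1RA), with an antibody to IL-17A at 200 µg per mouse i.p. 3 times a week (antiIL17A), or with both agents (Combo). By the study's methods, all recipients were lethally irradiated with 700 plus 400 cGy and given CD45.2+ BM of Shp2E76K/+ LysM-Cre+ mice, mixed 1:1 with CD45.1+ BM of Boy/J competitor mice, and the Ob/Ob mice were treated for 30 days from week 8. LysM-Cre is active in myeloid cells. The labels gave an age of 12 to 14 weeks and both sexes, named the same C57BL/6J genotype for every sample, and gave no donor for single samples. With the recipients' age at transplant in the study's methods, the age of the labels cannot be that of treated mice at sampling. The study also describes its ATM comparison in a legend as one of mutant against WT donor cells, which conflicts with the single donor mixture of its methods. For BM, a legend of the study gives mutant cells to both WT and Ob/Ob recipients. For ATMs, whether WT and Vehicle differ in recipient, in donor cells or in both cannot be told apart here. The methods describe the 30 days of treatment for Ob/Ob mice only, so WT and Vehicle may differ in that too.

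T cells read peptides on MHC molecules through a receptor that has no signaling domain of its own. The signal passes through the CD3 γ, δ and ε chains and the ζ chain (Cd247). The coreceptor CD4 binds MHC class II and CD8, a pair of an α and a β chain, binds MHC class I, and both bring the kinase Lck to the receptor. Lck phosphorylates the CD3 and ζ chains, and ZAP-70 then docks on them. CD28 gives the second, costimulatory signal when it meets CD80 or CD86, and CD96 is a receptor of T cells and NK cells for CD155. T cells live in BM and in adipose tissue, but a sort for macrophages should leave them out. Cd4 and Cd8a can also be transcribed in some dendritic cells, and Cd96 and Lck in NK cells. In bulk RNA, fewer T cells and less RNA of a gene in each T cell cannot be told apart.

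The 3 CD3 genes lie side by side on mouse chromosome 9 (build GRCm38, GENCODE M21). Cd3g occupies chr9:44969572-44980431 on the minus strand, Cd3d chr9:44981786-44987339 on the plus strand and Cd3e chr9:44998740-45009627 on the minus strand. The starts of Cd3g and Cd3d lie 1355 bases apart and are transcribed away from each other. The CD8 genes are neighbors on chromosome 6, Cd8b1 at chr6:71322788-71337494 and Cd8a at chr6:71373427-71379173, both on the plus strand, and Cd4 lies on the same chromosome at chr6:124864692-124888221 on the minus strand. Lck is at chr4:129548344-129573641 (minus), Zap70 at chr1:36761798-36782818 (plus), Cd28 at chr1:60716800-60773359 (plus) and Cd96 at chr16:46035657-46120251 (minus). Exons of 8 genes shared no base with another gene. Cd3e shared 135 bases with the antisense gene Gm48719 and Lck 25 bases with Mir8119, and the counting without regard to strand could not separate the former.

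The sequences before the starts of the CD3 genes and of Cd8a are shown because the CD3 genes are neighbors that all rose with Combo over Vehicle and over GLP1RA in ATMs, and because Cd8a had its highest level with antiIL17A. Each is the 250 bases upstream of the start, 5′ to 3′ on the strand of the gene, from RefSeq (GRCm38.p6), whose starts of Cd3e and Cd96 differ from the gene ends in GENCODE, at chr9:44980432-44980681, chr9:44981536-44981785, chr9:45009612-45009861 and chr6:71373177-71373426. Capitals mark AGGAAG (ETS factors), TGTGGT (RUNX), CTTTGA (TCF and LEF) and CACCTG (E proteins), on either strand. No marked motif overlapped another.
Cd3g: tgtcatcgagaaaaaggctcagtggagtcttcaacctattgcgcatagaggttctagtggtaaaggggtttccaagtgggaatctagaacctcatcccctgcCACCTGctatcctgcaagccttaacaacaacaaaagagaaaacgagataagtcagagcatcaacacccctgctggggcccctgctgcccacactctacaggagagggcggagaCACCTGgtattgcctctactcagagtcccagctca
Cd3d: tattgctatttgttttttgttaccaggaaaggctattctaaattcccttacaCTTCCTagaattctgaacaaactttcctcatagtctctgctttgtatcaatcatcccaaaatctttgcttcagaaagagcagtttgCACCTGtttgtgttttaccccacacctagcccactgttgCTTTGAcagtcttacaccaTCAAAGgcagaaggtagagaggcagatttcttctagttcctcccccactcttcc
Cd3e: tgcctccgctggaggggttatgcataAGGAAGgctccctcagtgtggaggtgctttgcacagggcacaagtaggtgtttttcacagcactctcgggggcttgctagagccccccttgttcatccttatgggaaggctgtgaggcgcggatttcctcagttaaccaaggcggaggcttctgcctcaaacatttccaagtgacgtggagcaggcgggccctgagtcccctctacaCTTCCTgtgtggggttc
Cd8a: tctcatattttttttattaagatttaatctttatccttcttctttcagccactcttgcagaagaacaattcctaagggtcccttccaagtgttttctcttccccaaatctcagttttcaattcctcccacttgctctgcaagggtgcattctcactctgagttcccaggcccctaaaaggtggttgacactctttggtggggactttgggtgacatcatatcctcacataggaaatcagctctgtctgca

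Cd3g held CACCTG 2 times, Cd3d held 1 CACCTG, 1 AGGAAG and 2 CTTTGA, Cd3e held 2 AGGAAG, and Cd8a held none of these letters. There were 10 windows for 7 of the 10 genes, 2 of them for Lck and 3 for Zap70, and Cd4, Cd8b1 and Cd28 had none. AGGAAG occurred in 6 of the 10 windows, CACCTG in 5, TGTGGT in 3 and CTTTGA in 2. By gene, AGGAAG occurred in 4 of the 7, CACCTG in 4, TGTGGT in 3 and CTTTGA in 2. Lck and Zap70, with several windows each, weigh more in the counts of windows. Of all 32851 windows of this length, AGGAAG was in 29.5%, CACCTG in 17.2%, TGTGGT in 14% and CTTTGA in 13.8%. A match in these letters is a description and not a site of binding.

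The summed gene counts of a library were 31086184 to 39925495 in BM and 24876074 to 45300263 in ATMs. Levels are given as CPM, the count scaled to a common library size after TMM normalization. A member had 30 to 1174 counts per library in BM and 14 to 9829 in ATMs, so that the lowest levels rest on few reads. Replicates differed by more than sampling noise in all groups. The BM library WT 1 stood apart from the other 2 WT libraries, at 26.6 and 34.8 times the variance of sampling against 2.02 to 4.21 for the other pairs of BM libraries. A gene was called when edgeR's quasi-likelihood test gave a Benjamini-Hochberg adjusted p below 0.05 over all genes of the tissue and the log2 fold change was beyond 1. The biological coefficient of variation was 3.51% in BM and 32.5% in ATMs, and a smaller change therefore passed the adjusted p in BM.

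The tissue labels were read against their markers. Adgre1, which encodes F4/80, had 750 to 1184 counts per library in ATMs of Vehicle, 5363 to 6993 in WT, 9596 to 15322 in GLP1RA, 13827 to 15551 in Combo and 35909 to 42339 in antiIL17A. Adipocyte and stromal markers, which sorted macrophages should lack, summed to 9051 to 17493 CPM in the ATM libraries. Genes of the T cell receptor complex should likewise be absent from sorted macrophages. Which cells gave their RNA in the ATM libraries was not tested, so their levels there are not a measure of T cells in the tissue. Xist, transcribed from the inactive X of females, also moved with the groups, at 5284 to 6250 counts in BM of Vehicle and 3382 to 3555 in Combo, 87 to 125 in antiIL17A, 0 to 3 in WT and 0 to 6 in GLP1RA. In ATMs Xist had 747 to 1024 counts in Vehicle, 1098 to 1400 in Combo, 8 to 24 in WT, 0 to 53 in antiIL17A and 0 in GLP1RA. The part of sex and of sort purity in the results below was not tested.

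In ATMs, 9 of the 10 genes had their lowest mean in Vehicle, and Zap70 in WT. The mean was highest in Combo for 8 genes and in antiIL17A for Cd8a and Cd8b1. Their summed level was 342 to 373 CPM in WT, 154 to 160.2 in Vehicle, 586 to 630.1 in GLP1RA, 687 to 715 in antiIL17A and 1162 to 1193 in Combo, and no group overlapped another. In Vehicle vs WT, 8 of the 10 genes fell and none rose, while 22.9% of all 17059 genes were called lower and 35.4% were called. The median log2 fold change of the 10 genes was -1.23, beside -0.21 for all genes. Against Vehicle, all 10 rose with GLP1RA, 9 with antiIL17A and all 10 with Combo. In these comparisons, 20.8%, 22.4% and 14.1% of all genes were called higher and 31.8%, 35.5% and 26.4% were called. The medians of the 10 genes were 1.73, 2.21 and 2.97, beside 0.19, 0.17 and 0 for all genes. Between Vehicle and Combo, 52.5% of all genes did not overlap. The 3 treated groups were compared with the same Vehicle libraries, and Vehicle vs WT shares those libraries too, so that low Vehicle values enter all 4 comparisons.

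**Figure D1:**
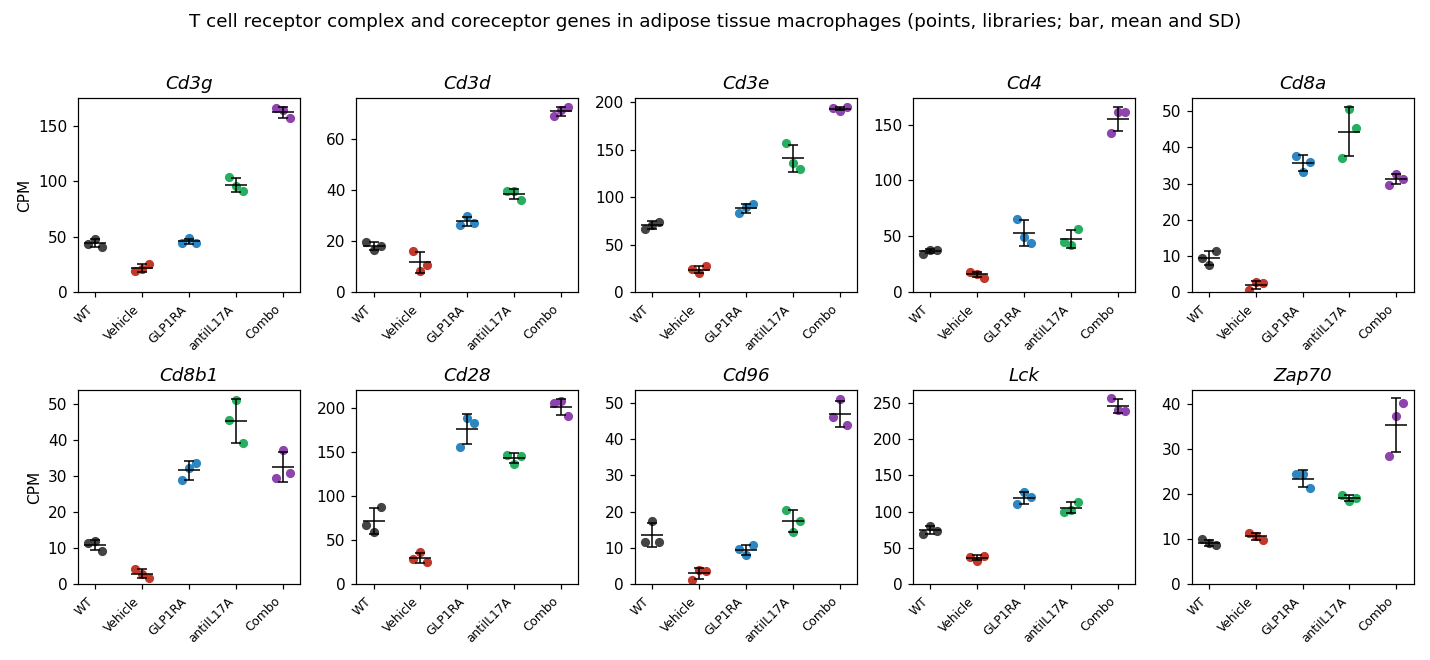
CPM of each gene in the 15 ATM libraries, 1 point per library, with the mean and SD of 3 libraries as a bar. Combo is the highest group for 8 genes, and antiIL17A is the highest for Cd8a and Cd8b1.

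Cd3e, the chain that pairs with both CD3 γ and CD3 δ, had 66.1, 70.8 and 74.2 CPM in the 3 WT libraries of ATMs and 24.3, 19.99 and 26.9 CPM in the Vehicle libraries. It stood at 83.4, 89.2 and 92.5 CPM with GLP1RA, 157, 136 and 129 CPM with antiIL17A, and 194, 191 and 195 CPM with Combo. Every library of Vehicle lay below every other library, and the 5 groups did not overlap. Cd3e was 2.96-fold lower in Vehicle than in WT (log2 fold change -1.57 ± 0.10 SE, adjusted p = 2.29e-09) and 8.15-fold higher in Combo than in Vehicle (3.03 ± 0.10, adjusted p = 1.23e-12). Against GLP1RA, Combo was 2.19-fold higher (adjusted p = 1.52e-07), and against antiIL17A the log2 difference was 0.46 ± 0.09, under the limit on the fold.

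Cd3g ran from 40.9 to 48.3 CPM in WT, 18.9 to 25.5 in Vehicle, 44.2 to 48.4 in GLP1RA, 91.5 to 104 in antiIL17A and 157 to 167 in Combo. GLP1RA libraries overlapped the WT libraries (log2 fold change 0.05 ± 0.10, adjusted p = 0.762), and antiIL17A was 2.12-fold above GLP1RA (adjusted p = 7.79e-07). Cd3g was the 1 member called in GLP1RA vs antiIL17A, where 3.22% of all genes were called lower in GLP1RA and 8.1% were called. Cd3d was spread more widely in Vehicle, at 16.1, 8.09 and 10.8 CPM, against 16.5 to 19.5 CPM in WT. The 2 groups came close without overlap, and the change of -0.62 ± 0.18 (adjusted p = 0.00801) was under the limit on the fold. Combo reached 68.9 to 72.5 CPM of Cd3d, 6.07-fold above Vehicle (adjusted p = 9.88e-09).

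Cd4 had 34.5, 37.8 and 37.5 CPM in WT ATMs and 18.0, 16.3 and 12.9 CPM in Vehicle, a 2.32-fold fall (adjusted p = 9.42e-06). It stood at 65.5, 49.7 and 43.6 CPM with GLP1RA and 44.8, 41.8 and 56.7 CPM with antiIL17A, and these 2 groups overlapped. With Combo it had 143, 161 and 161 CPM. Combo was 9.85-fold above Vehicle (adjusted p = 1.45e-10), 2.93-fold above GLP1RA (adjusted p = 8.54e-07) and 3.25-fold above antiIL17A (adjusted p = 5.13e-07). The coreceptor of helper T cells was thus higher in the 3 Combo libraries than in the 12 other ATM libraries.

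The CD8 genes took another course. Cd8a had 9.33, 7.58 and 11.3 CPM in WT and 0.564, 2.65 and 2.62 CPM in Vehicle, where a library held as few as 14 counts. It had 37.7, 33.3 and 35.8 CPM with GLP1RA, 37.0, 50.5 and 45.2 CPM with antiIL17A and 29.7, 32.5 and 31.3 CPM with Combo. Cd8a was 4.88-fold lower in Vehicle than in WT (adjusted p = 3.59e-05) and 18.5-fold, 23.0-fold and 16.2-fold higher than in Vehicle with GLP1RA, antiIL17A and Combo (adjusted p = 6.19e-08, 2.53e-08 and 1.10e-07).

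Cd8b1, whose β chain marks the CD8 of cytotoxic T cells, moved with Cd8a between groups. It had 11.3, 11.9 and 9.29 CPM in WT, 4.07, 2.92 and 1.58 CPM in Vehicle, and 29.4, 37.3 and 30.8 CPM in Combo. Within Vehicle the CD8 genes did not follow each other, and the ratio of Cd8a to Cd8b1 counts was 0.139, 0.909 and 1.66. With GLP1RA Cd8b1 ran from 28.7 to 33.7 CPM and overlapped Combo, and with antiIL17A from 39.1 to 51.1 CPM. Combo differed from the single agents for neither CD8 gene at the adjusted p. The log2 differences were -0.19 ± 0.29 (Cd8a) and 0.04 ± 0.22 (Cd8b1) from GLP1RA, and -0.51 ± 0.29 and -0.48 ± 0.22 from antiIL17A (adjusted p = 0.650, 0.902, 0.227 and 0.121).

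Cd28 rose over Vehicle with each agent. It had 67.2, 59.1 and 87.5 CPM in WT, 28.1, 36.4 and 25.1 CPM in Vehicle and 206, 208 and 191 CPM in Combo, with 156 to 189 CPM in GLP1RA and 137 to 147 CPM in antiIL17A. Combo was 6.75-fold above Vehicle (adjusted p = 2.49e-10), but only 0.20 ± 0.13 on the log2 scale above GLP1RA (adjusted p = 0.276). Cd96 was low in Vehicle at 1.09, 3.98 and 3.70 CPM, against 11.7, 17.3 and 11.6 CPM in WT, a 4.65-fold fall (adjusted p = 4.19e-05). It reached 46.0, 50.9 and 43.8 CPM in Combo, 16.1-fold above Vehicle, 4.96-fold above GLP1RA and 2.697-fold above antiIL17A (adjusted p = 1.24e-07, 3.00e-05 and 0.00231). With GLP1RA, Cd96 had 8.04 to 10.7 CPM, below every WT library, and the difference from WT was -0.52 ± 0.31 (adjusted p = 0.218).

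The kinases differed from each other. Lck had 68.8, 79.7 and 73.6 CPM in WT, 37.7, 32.2 and 38.8 CPM in Vehicle and 256, 240.0 and 239 CPM in Combo. Its fall in Vehicle was 2.04-fold (adjusted p = 5.48e-08), and its rise from Vehicle to Combo 6.76-fold (adjusted p = 5.96e-13). Lck was also 2.06-fold above GLP1RA and 2.33-fold above antiIL17A in Combo. Zap70 had 9.91, 9.10 and 8.60 CPM in WT and 11.4, 10.6 and 9.70 CPM in Vehicle, with overlap, a log2 fold change of 0.20 ± 0.15 and adjusted p = 0.284. It was the one member without a lower level in Vehicle than in WT. Zap70 rose 2.21-fold with GLP1RA and 3.34-fold with Combo over Vehicle, and its change of 0.85 ± 0.15 with antiIL17A was under the limit on the fold.

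Against WT, Combo stood higher for all 10 genes in ATMs, by 2.75-fold (Cd3e) to 4.24-fold (Cd4), where 7.08% of all genes were called higher and 21.6% were called. In comparisons added after the values were seen, GLP1RA was above WT for 4 genes (Cd8a, Cd8b1, Cd28 and Zap70) and antiIL17A for 7, all but Cd4, Cd96 and Lck. Of all genes, 7.7% and 9.65% were called higher in these, and 15.1% and 18.7% were called. Cd3e and Cd28 sat at the limit in antiIL17A vs WT, at 1.0003 and 1.01, and were under it without the WT 1 library (0.96 and 0.97). Combo was above GLP1RA for 6 genes (Cd3d, Cd3e, Cd3g, Cd4, Cd96 and Lck; 5.38% of all genes called higher and 18.7% called) and above antiIL17A for 3 (Cd4, Cd96 and Lck; 3.73% and 14.2%).

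BM gave a different picture. The 10 genes summed to 107 to 112 CPM in WT, 90.1 to 91.4 in Vehicle, 112 to 121 in GLP1RA, 74.2 to 78.5 in antiIL17A and 44.5 to 49.9 in Combo, so that Combo was the lowest group. In Vehicle vs WT, 1 gene (Cd96) fell and none rose, while 10% of all 13353 genes were called lower and 19.5% were called. In Combo vs Vehicle, 5 genes fell (Cd3d, Cd8a, Cd28, Lck and Zap70) and none rose, while 11.1% of all genes were called lower and 17.7% were called. Without the limit on the fold, 9 genes were lower and Cd96 was higher, where 35.8% and 37.9% of all genes were lower and higher by the same test. The median log2 fold change of the 10 genes was -1.02, beside 0.02 for all genes. As in ATMs, the comparisons with Vehicle share the same 3 Vehicle libraries. Of all genes, 75.7% did not overlap between Vehicle and Combo, so a lack of overlap was common in BM.

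**Figure D2:**
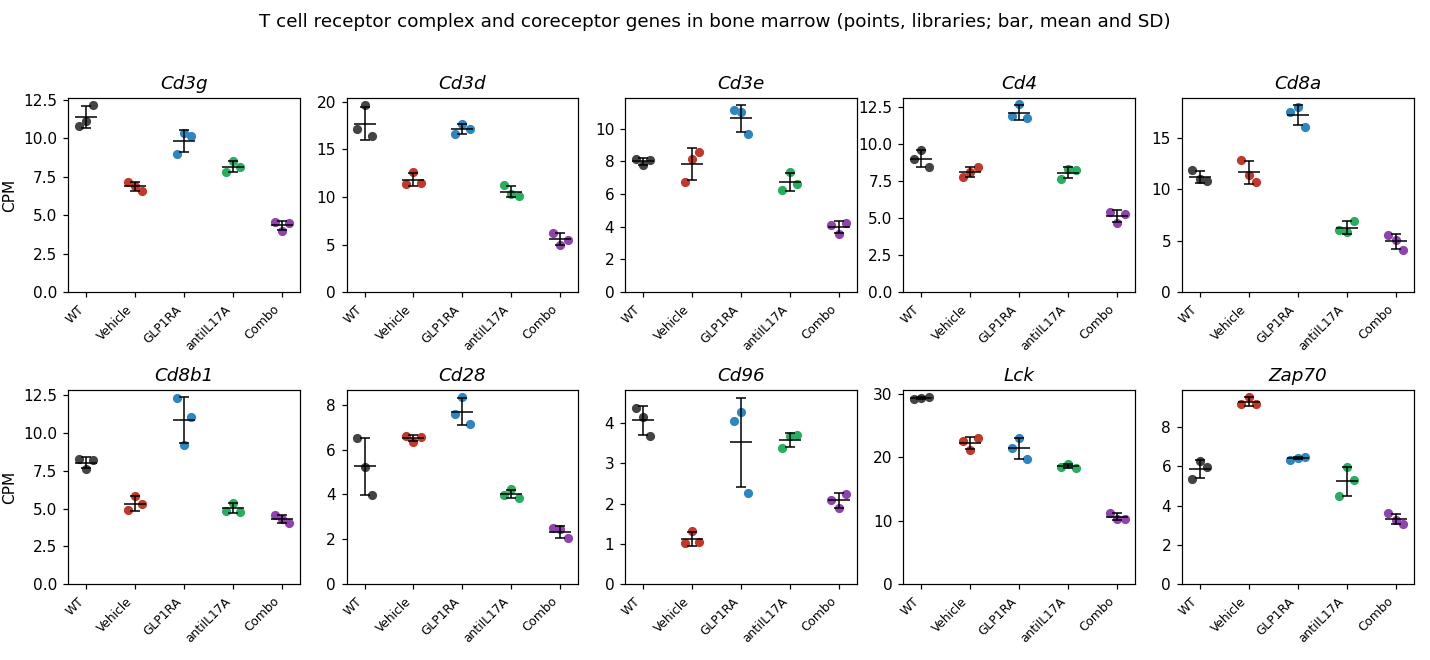
CPM of each gene in the 15 BM libraries, 1 point per library, with the mean and SD of 3 libraries as a bar. Combo is the lowest group for 9 genes, and Cd96 is lowest in Vehicle.

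Among the CD3 genes of BM, Cd3d had 17.1, 19.7 and 16.4 CPM in WT, 11.4, 12.7 and 11.4 CPM in Vehicle, and 6.26, 4.99 and 5.45 CPM in Combo. It was 16.6 to 17.7 CPM in GLP1RA and overlapped WT there. Its fall from Vehicle to Combo was 1.09 on the log2 scale (SE 0.10, adjusted p = 3.92e-13). Cd3e had 6.71, 8.17 and 8.58 CPM in Vehicle, overlapping WT, and 4.08, 3.56 and 4.25 CPM in Combo, with a log2 fold change of -0.98 ± 0.12 just under the limit. Cd3g was already lower in Vehicle (6.58 to 7.13 CPM) than in WT (10.8 to 12.2 CPM), at -0.72 ± 0.10, and stood at 3.98 to 4.52 CPM in Combo.

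In BM, Cd8a fell with Combo and Cd8b1 did not pass the limit on the fold. Cd8a had 12.8, 11.3 and 10.7 CPM in Vehicle, overlapping WT, 17.4, 17.9 and 16.1 CPM in GLP1RA, 6.06, 5.78 and 6.93 CPM in antiIL17A and 5.58, 5.08 and 4.07 CPM in Combo. Its fall from Vehicle to Combo was 1.24 on the log2 scale (SE 0.11, adjusted p = 1.22e-13). Cd8b1 had 4.88, 5.83 and 5.27 CPM in Vehicle and 4.55, 4.29 and 4.04 CPM in Combo, a log2 fold change of -0.31 ± 0.12. Both were high with GLP1RA, where Cd8b1 reached 9.24 to 12.3 CPM. Against Vehicle, Cd8b1 and Cd96 rose with GLP1RA, and Cd96 rose with antiIL17A. The rise of Cd8b1 (1.02) was under the limit without Vehicle 1 (0.96) or GLP1RA 1 (0.92). In these 2 comparisons, 7.6% and 7.65% of all genes were called higher, and 16.7% and 16.1% were called. In a comparison added later, Cd8a was 2.74-fold and Cd8b1 2.16-fold above antiIL17A with GLP1RA (adjusted p = 9.84e-17 and 8.12e-12), where 2.43% of all genes were called higher and 5.83% were called. Cd4 had 8.44 to 9.57 CPM in WT and 7.75 to 8.44 CPM in Vehicle (log2 fold change -0.15 ± 0.09, adjusted p = 0.129), and 4.68 to 5.44 CPM in Combo.

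Cd28 in BM had 6.61, 6.35 and 6.58 CPM in Vehicle and 2.51, 2.46 and 2.04 CPM in Combo, and its 3 WT libraries ran from 3.99 to 6.54 CPM. Zap70 was the highest in Vehicle, at 9.18, 9.56 and 9.16 CPM against 5.34, 6.27 and 5.97 CPM in WT, and lowest in Combo at 3.60, 3.28 and 3.09 CPM. These 2 genes had the largest falls of the 10 from Vehicle to Combo, at 1.48 on the log2 scale for each (SE 0.15 and 0.12, adjusted p = 1.01e-11 and 1.37e-14). Lck, the most counted member in BM, had 29.2, 29.4 and 29.6 CPM in WT, 22.6, 21.2 and 23.0 CPM in Vehicle and 11.2, 10.3 and 10.3 CPM in Combo. Its fall from Vehicle was 1.07 on the log2 scale (SE 0.07, adjusted p = 2.76e-17).

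Cd96 went its own way in BM. It had 4.38, 4.16 and 3.68 CPM in WT but 1.01, 1.33 and 1.03 CPM in Vehicle, which came from 30 to 43 counts per library. It was 4.04, 4.28 and 2.26 CPM with GLP1RA, 3.38 to 3.70 CPM with antiIL17A and 2.10, 1.89 and 2.25 CPM with Combo. The log2 fold change was -1.85 ± 0.20 in Vehicle vs WT (adjusted p = 1.04e-10), 1.65 ± 0.21 with GLP1RA (adjusted p = 2.89e-09), 1.67 ± 0.20 with antiIL17A (adjusted p = 2.27e-09) and 0.88 ± 0.22 with Combo (adjusted p = 6.24e-04). Levels of Combo lay between those of Vehicle and WT without overlap, under the limit on the fold in each comparison.

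Against WT, 6 genes were lower with Combo in BM (Cd3d, Cd3e, Cd3g, Cd8a, Cd28 and Lck; 9.93% of all genes called lower and 14.3% called). Against GLP1RA, 8 genes were lower with Combo, all but Cd96 and Zap70 (8.57% called lower and 13.2% called). Without the WT 1 library, 4 genes remained called in Combo vs WT, and Cd3e and Cd28 were no longer past the limit on the fold (-1 and -0.99). Combo vs antiIL17A had 0 called members by edgeR and 0 by DESeq2, where 4.63% of all genes were called lower and 5.67% were called. Without the limit on the fold, 9 members were lower in Combo, where 21.7% of all genes were lower by the same test. GLP1RA and antiIL17A had 0 members called against WT in BM by edgeR and 0 by DESeq2, where 14.7% and 6.32% of all genes were called. In each, 7 members passed the adjusted p without the limit on the fold, as did 74.7% and 66.3% of all genes.

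**Figure D3:**
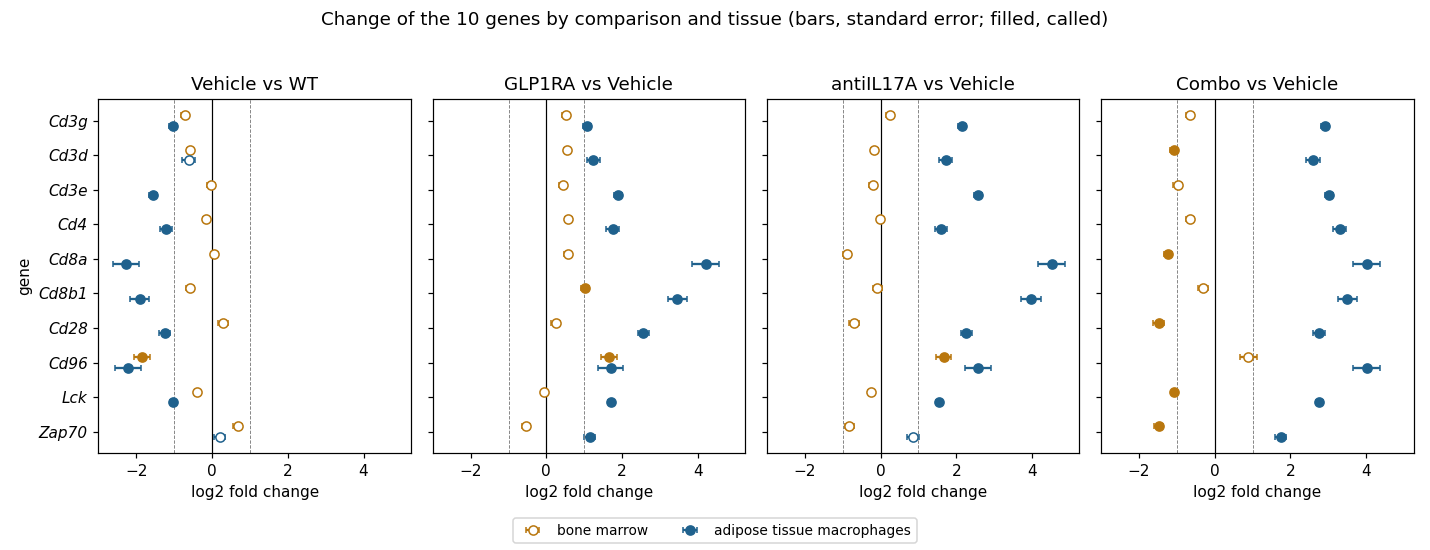
Log2 fold change with its SE for the 10 genes in 4 comparisons, for BM (orange) and ATMs (blue). Filled points were called, and dashed lines mark -1 and 1. With Combo, all 10 ATM values lie above 1 and 9 of 10 BM values lie below 0.

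Whether an effect differed between the tissues was asked by an interaction term, fitted to all 30 libraries over 13076 genes. For Combo vs Vehicle, the effect was lower in BM than in ATMs for all 10 genes, with log2 differences from -5.26 (Cd8a) to -3.13 (Cd96), where 16.9% of all genes had a lower effect in BM and 27.8% differed. Signs were opposite for 9 of the 10 genes. For Vehicle vs WT, the effect was higher in BM for 5 genes (Cd3e, Cd4, Cd8a, Cd8b1 and Cd28), where 16.9% of all genes had a higher effect in BM and 28.7% differed. Cd3d, which was lower in Vehicle in both tissues, differed by 0.04 ± 0.21 (adjusted p = 0.880) and Cd96 by 0.37 ± 0.42 (adjusted p = 0.482). Each tissue was scaled on its own, so levels in BM and ATMs are not compared.

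Apart from the count ratios below, levels of different genes were set side by side only per kilobase of exon, as CPM per kilobase. Lck had the highest mean of the 10 genes in every group but GLP1RA of BM, where Cd3d led (9.46), at 10.03 in WT BM and 25.3 in WT ATMs. Cd3d came next in WT BM at 9.77, not clear of Lck since its libraries ran from 9.05 to 10.8, while Cd3e stood at 1.96. In WT ATMs Cd3e stood at 17.2 and Cd3d at 9.92. Cd28 was lowest in WT BM (0.859), and Cd8a was lowest in WT ATMs (2.58) and in Vehicle ATMs (0.535).

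Ratios within a library, which do not depend on its scaling, showed how the balance of members moved. Their counts were not divided by exon length, which was 4032 bases for Cd4 and 1483 for Cd8b1. The ratios are therefore compared between groups and not read as relative levels of 2 genes. The Cd4 over Cd8b1 count ratio in ATMs was 3.06, 3.18 and 4.04 in WT and 4.43, 5.58 and 8.20 in Vehicle. It was 2.28, 1.54 and 1.29 with GLP1RA, 0.985, 0.819 and 1.45 with antiIL17A, and 4.84, 4.33 and 5.25 with Combo. The single-agent ratios lay below those of the other 9 ATM libraries, and the ratio of Combo overlapped Vehicle (exact permutation test, two-sided, p = 0.4). For GLP1RA vs Vehicle, antiIL17A vs Vehicle and Combo against either agent, the groups did not overlap and p was 0.1, the smallest that 3 against 3 libraries allow. Ratios were computed for 11 pairs of members in 10 comparisons of each tissue, and none can pass 0.05 at this size. In BM the ratio had a narrower range, from 1.13 ± 0.12 in WT to 1.61 ± 0.10 in antiIL17A (mean ± SD, n = 3).

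**Figure D4:**
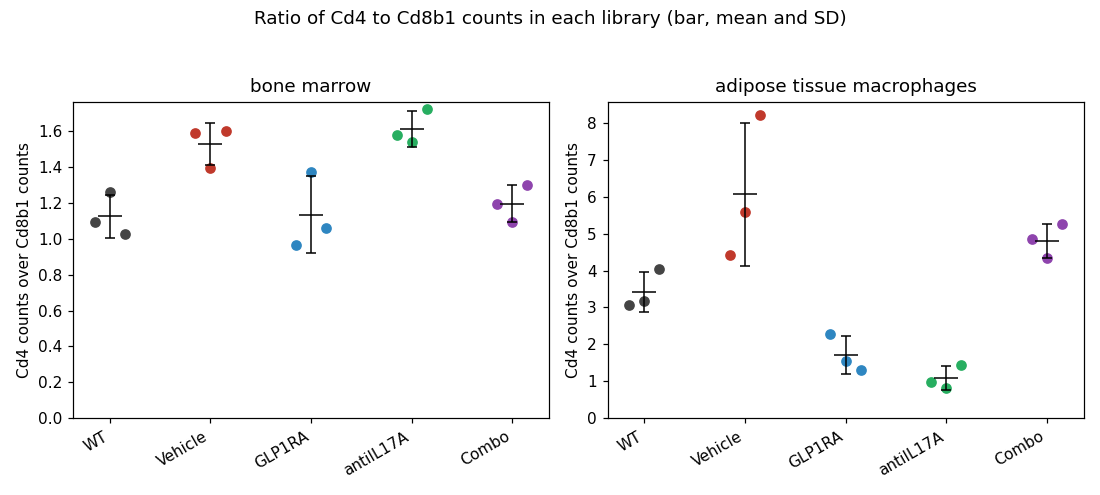
Cd4 counts divided by Cd8b1 counts in each library of BM (left) and ATMs (right), with the mean and SD of 3 libraries. In ATMs the ratio is 0.819 to 2.28 with a single agent and 3.06 to 8.20 in the other groups.

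The ratios of the single agents overlapped each other (p = 0.2, exact permutation test). Ratios to Cd3e were also computed. Cd28 over Cd3e in ATMs was 1.99 ± 0.12 with GLP1RA and 1.02 ± 0.10 with antiIL17A (mean ± SD, n = 3; exact permutation test, p = 0.1), and Zap70 over Cd3e 0.265 ± 0.032 against 0.136 ± 0.010 (p = 0.1, exact permutation test). Zap70 over Cd3e was 0.131 ± 0.017 in WT and 0.453 ± 0.086 in Vehicle ATMs. In BM, Cd96 over Cd3e was 0.509 ± 0.046 in WT, 0.144 ± 0.022 in Vehicle and 0.524 ± 0.008 in Combo. Within the CD3 genes, Cd3g over Cd3e in ATMs was 0.630 ± 0.069 in WT, 0.918 ± 0.128 in Vehicle and 0.518 ± 0.033 in GLP1RA, without overlap, and Cd3d over Cd3e 0.257 ± 0.033 in WT and 0.489 ± 0.150 in Vehicle. Cd8a over Cd8b1 was 2.20 ± 0.37 in Vehicle, 1.39 ± 0.07 in WT and 1.14 ± 0.12 in Combo in BM.

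The rest of the pathway was read from lists of T cell genes. The ζ chain Cd247 was the only gene of the list of receptor constant chains and ζ in the tables. It rose with Combo over Vehicle in ATMs (log2 fold change 1.72 ± 0.15) and fell in BM (-1.18 ± 0.15), with adjusted p = 9.22e-08 and 1.89e-08. Of 28 genes of receptor signaling, 15 rose and 1 fell in Combo vs Vehicle in ATMs, with a median of 1.12 beside 0 for all genes. Of all genes, 14.1% were called higher and 12.2% lower in that comparison in ATMs, and 6.58% and 11.1% in BM, and the counts of all 3 lists are to be read against these shares. The most counted of them were the phosphatase Ptprc, which rose by 2.22, Nfatc1 (0.28) and the adaptor Lcp2 (0.18), and the ubiquitin ligase Cblb fell by 1.14. In BM 1 rose and 10 fell, with a median of -0.88 beside 0.02. The most counted there, Ptprc (0.46), Csk (-0.08) and Vav1 (0.46), are transcribed well beyond T cells and did not pass the limit on the fold, and Ubash3a rose (1.01).

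Of 12 genes of the T cell surface and costimulation, 9 rose and 1 fell in ATMs with Combo, with a median of 2.005 beside 0 for all genes. The most counted were the chemokine receptor Ccr7 (-0.96), under the limit, and Cd6 (2.64) and Cd2 (1.24), which rose. In BM 6 of the 12 fell and none rose, with Cd2 at -1.77 and the interleukin-7 receptor Il7r at -1.33. Of 12 T cell transcription factors, 5 rose in ATMs (Tcf7, Lef1, Bcl11b, Foxp3 and Tox) and none fell, with a median of 0.60. In BM 3 fell, Gata3 and Foxp3 among them, and none rose, with a median of -0.44. There 5 of the 12 had a log2 fold change above 0. Their sum in BM was higher in Combo (530 to 539 CPM) than in Vehicle (431 to 443 CPM), with Ets1, Zbtb7b and Satb1 the most counted. Tcf7 overlapped in BM, at 8.34 to 9.28 CPM in Vehicle and 8.58 to 9.29 in Combo. In Vehicle vs WT, 12.5% of all genes were called higher and 22.9% lower in ATMs, and 9.44% and 10% in BM. In ATMs, 2 of the 28 signaling genes were called higher and 3 lower, 2 of the 12 surface genes higher and 2 lower, and 2 of the 12 transcription factors higher and 4 lower. In BM, the counts were 0 and 2, 2 and 1, and 3 and 1. Counts of 0 to 4 genes in lists of this size lie near or below what these shares of all genes give for several of the lists.

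Markers of other cells moved beside these genes. In ATMs, macrophage markers (10 genes) summed to 2579 to 2763 CPM in Vehicle, 4542 to 4790.1 in WT, 10781 to 11218 in GLP1RA, 11061 to 11134 in Combo and 15920 to 16140.1 in antiIL17A. Neutrophil markers (9 genes) summed to 17248 to 18406 CPM in Vehicle and 7879 to 8088 in Combo, against 228 to 433 in the other groups. NK cell markers (9 genes) were also low in Vehicle, at 92.1 to 98.1 CPM, and high in Combo at 334 to 349, with 148 to 165 in WT. Ncr1, which marks NK cells, had 0 to 12 counts in Vehicle and 204 to 405 in Combo. B cell markers (9 genes) had 128 to 142 CPM in Vehicle, 257 to 271 in Combo and 423 to 496 in WT, so they did not follow the members above WT. Dendritic cell markers (10 genes) summed to 1486 to 1574 CPM in Vehicle, mostly Bst2, with up to 4 of the 10 at 0, and to 177 to 261 in the other groups. Erythroid markers (6 genes) stood at 6713 to 6806 CPM in Vehicle, 5435 to 5585 in Combo and 1172 to 4093 in the other groups, and markers of ILC2 and mast cells (7 genes) at 547 to 594, 360 to 384 and 229 to 790. Their part in the result was not tested.

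In BM, B cell markers (10 genes) summed to 1405 to 1443 CPM in WT, 422 to 441 in Vehicle, 135 to 138 in GLP1RA, 451 to 463 in antiIL17A and 141 to 146 in Combo. The low B cell level of GLP1RA came with 111.5 to 121 CPM of the 10 T cell genes. This overlapped the 107.3 to 111.7 CPM of WT, which had the highest B cell level. The low B cell level of Combo came with the lowest level of the 10 T cell genes. These sums are led by the most counted genes of a list, so the counts of called genes are given beside them. NK cell markers (9 genes), with Nkg7 the most counted, were at 205 to 207 CPM in WT, 259 to 264 in Vehicle, 103 to 106 in GLP1RA, 162 to 163 in antiIL17A and 160 to 163 in Combo. Of the 9 genes, 6 fell and none rose in Combo vs Vehicle (median log2 fold change -1.21) and in Combo vs antiIL17A (-1.49). In Vehicle vs WT, 3 fell and 2 rose (-0.72). In Combo vs Vehicle, 11.1% of all genes were called lower and 6.58% higher, and in Combo vs antiIL17A 4.63% and 1.04%. In Vehicle vs WT these shares were 10% and 9.44%, and the counts below are to be read against the same shares. Neutrophil markers (9 genes) were highest in Combo, at 90732 to 93017 CPM, against 56659 to 86968 in the other groups, and macrophage markers (10 genes) stood at 13249 to 13528 in WT and 3605 to 6671 in the other groups. Lyz2 was the most counted macrophage marker and fell by 1.90 on the log2 scale in Vehicle vs WT, where 2 of the 10 fell and 2 rose (median 0.13). In Combo vs Vehicle, 5 macrophage markers fell and 1 rose (median -0.996). Dendritic cell markers (10 genes) ran from 55.6 to 136 CPM outside Vehicle and from 710 to 739 in it, of which Bst2 gave 656 to 685. In Vehicle vs WT, 1 of the 10 dendritic cell markers rose and 4 fell (median -0.46). The sums of the remaining lists ran, for erythroid markers (6 genes), from 799 to 2520 CPM, for ILC2 and mast cell markers (6 genes) from 189 to 234, and for adipocyte and stromal markers (9 genes) from 88.3 to 163. Their part in the result was not tested.

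**Figure D5:**
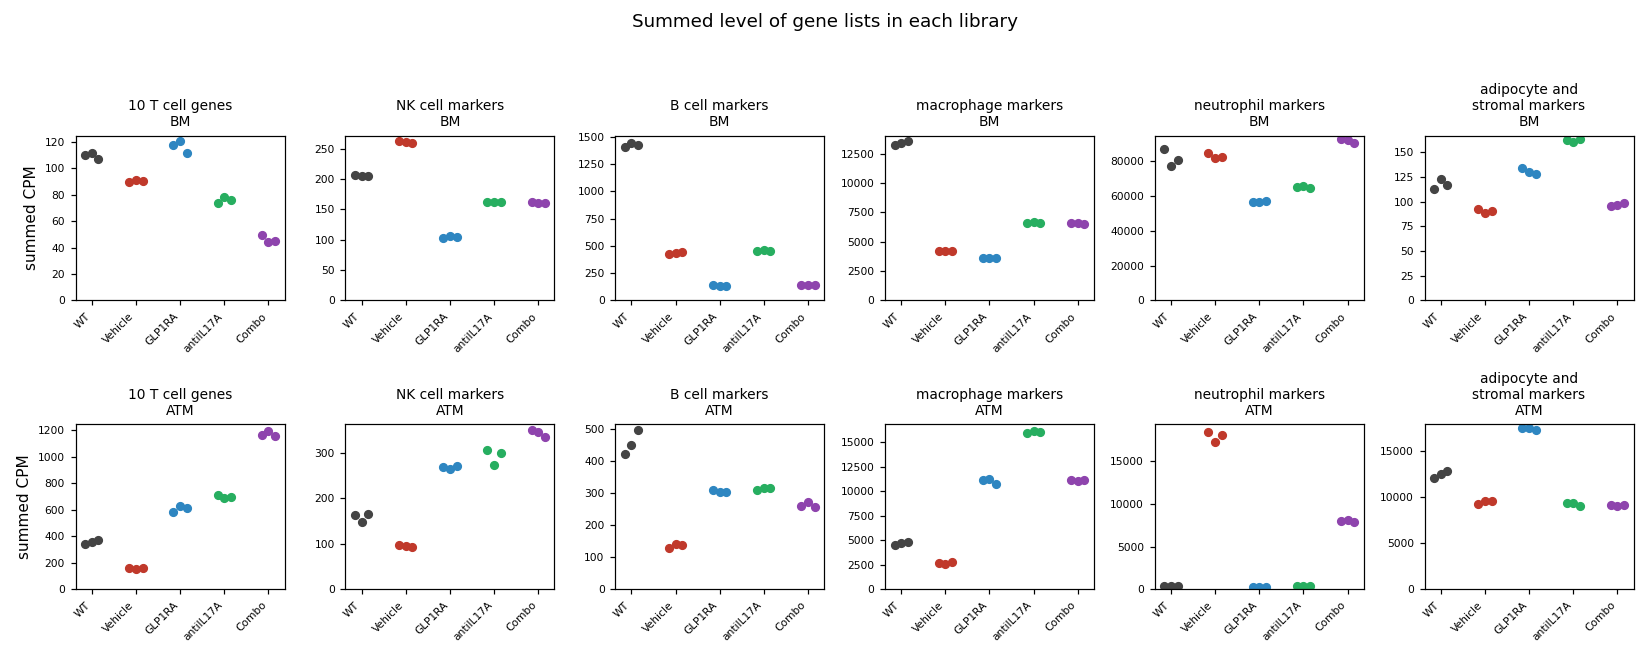
Summed CPM of the 10 T cell genes and of 5 marker lists in each library, BM above and ATMs below, each panel on its own axis from 0. In ATMs the T cell genes and NK cell markers are lowest in Vehicle, where neutrophil markers are highest, and in BM the T cell genes are lowest in Combo.

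The genes whose level was most like the mean of the 3 CD3 genes across the 15 libraries of a tissue were on none of the T cell lists. By Pearson's r of log2(CPM + 1), leaving out genes whose counts averaged under 10, they were Fcna (0.992), Blvrb (0.983), Lpl (0.976), Cbx7 (0.970) and Tsc22d1 (0.969) in BM. In ATMs they were Dnajc9 (0.984), Atp5b (0.984), Top2a (0.983), Ccnb2 (0.979) and Was (0.978). Among the members, Cd4 was the most like the CD3 genes in BM (0.943) and Lck in ATMs (0.948), and Cd96 (0.469) and Zap70 (0.638) were the least like them in BM. These values rest on 5 groups of 3 libraries and describe the order of the groups.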

How the data were processed

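Whole BM and sorted F4/80+ ATMs of mice were sequenced (poly(A), paired ends, unstranded). Per the labels and the study's methods, STAR 2.7.2a (mm10) was the aligner the authors used, and they made gene counts with featureCounts 2.0.1 on GENCODE M22, with a read over several genes counted for each. The deposited values are raw counts of 1 table per tissue, with low-count genes already absent (smallest gene total 55 in BM and 54 in ATMs). Groups came from the labels alone.

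Counts were analyzed in R 4.3.3 with edgeR 4.0.16 (TMM, filterByExpr, which removed 0 genes, 1 robust quasi-likelihood fit of the 15 libraries per tissue). All tests were two-sided. Calls needed both an adjusted p (Benjamini-Hochberg over all genes) below 0.05 and a log2 fold change beyond 1. The difference between tissues was an interaction in 1 fit of 30 libraries. SEs were taken from the F statistic. The text names all 10 members, at most 3 genes of each list (those with the highest mean count) and the 5 non-members most like the CD3 genes. Adgre1, Bst2, Ncr1, Xist, Cblb, Ubash3a and the transcription factors given as called were named after their values were seen. Some genes counted in the lists are not reported here by name. The members and lists were chosen with earlier results of these data known. The labels call the 3 libraries of a group replicates. Where libraries share a source, p-values measure only the spread between these libraries. Replicate numbers did not pair the samples. Positions are from GENCODE M21 and upstream sequences from RefSeq, both GRCm38. The scripts were tested on simulated data. Alternatives were DESeq2 1.42.0 and its size factors, limma 3.58.1 (voom), other low-count filters, no fold limit, only the groups compared, the replicate block, and leaving out each library.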

Additional observations from a re-analysis of the deposited data

Results flagged for a closer look

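The log2 fold change of Combo vs Vehicle or of Vehicle vs WT differed between BM and ATMs for the members below. This was by the interaction test of edgeR over 13076 genes, with the adjusted p below 0.05 and a difference beyond 1 on the log2 scale. For Combo vs Vehicle, the log2 difference (BM minus ATMs) was -3.69 for Cd3d, -4.01 for Cd3e and -3.57 for Cd3g, the signaling chains. It was -3.96 for Cd4, -5.26 for Cd8a and -3.81 for Cd8b1, the coreceptors. It was -4.23 for Cd28, -3.13 for Cd96, -3.83 for Lck and -3.22 for Zap70. Of these, Cd96 alone had the same sign in both tissues (0.88 in BM and 4.01 in ATMs). For Vehicle vs WT, it was 1.53 for Cd3e, 1.06 for Cd4, 2.35 for Cd8a, 1.32 for Cd8b1 and 1.55 for Cd28, with a fall in ATMs in each. The BM libraries hold all BM cells and the ATM libraries a sorted fraction, and the part of sorting in these differences was not tested.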

How the results depend on the processing

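The direction of every called member and the counts of called members held within 1.5 times under DESeq2, DESeq2's size factors, both low-count filters, the 2 groups alone and limma voom (for the interaction), for the 10 comparisons of each tissue. Without the limit on the fold, BM counts were 7 for Vehicle vs WT, 8 for GLP1RA vs Vehicle, 6 for antiIL17A vs Vehicle, 10 for Combo vs Vehicle, 10 for Combo vs WT, 9 for Combo vs antiIL17A, and 7, 7 and 9 for GLP1RA vs WT, antiIL17A vs WT and GLP1RA vs antiIL17A. Of all genes, 76.6%, 72.8%, 73%, 73.8%, 73.3%, 52.5%, 74.7%, 66.3% and 62.7% passed the same test in these BM comparisons, in that order. ATM counts were 8 for Combo vs antiIL17A, 8 for GLP1RA vs WT and 3 for GLP1RA vs antiIL17A, where 28.6%, 35.5% and 29.8% of all genes passed. The BM counts of 6, 7 and 8 and the ATM count of 3 lie near these shares. The cause of these shifts is the removal of the limit itself. The fit with the replicate block gave the same counts as the fit without it, for example 5 members for Combo vs Vehicle in BM and 10 in ATMs, and the numbers did not pair the samples (correlations of -0.05 to 0.14 in BM and -0.05 to 0.03 in ATMs).

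Leaving out 1 library gave 6 to 8 members in ATMs for Vehicle vs WT, 9 to 10 for GLP1RA vs Vehicle, 9 for antiIL17A vs Vehicle, 10 for Combo vs Vehicle and Combo vs WT, 5 to 6 for Combo vs GLP1RA, 3 to 4 for Combo vs antiIL17A, 4 for GLP1RA vs WT, 5 to 7 for antiIL17A vs WT and 1 to 2 for GLP1RA vs antiIL17A, where Cd96 was added without the antiIL17A 2 library. In BM it gave 1 for Vehicle vs WT, 1 to 2 for GLP1RA vs Vehicle, 1 for antiIL17A vs Vehicle, 5 to 6 for Combo vs Vehicle, 4 to 7 for Combo vs WT, 7 to 9 for Combo vs GLP1RA, 0 to 1 for Combo vs antiIL17A, 2 for GLP1RA vs antiIL17A and 0 for GLP1RA vs WT and antiIL17A vs WT. Cd8b1 was no longer past the limit in BM in GLP1RA vs Vehicle without Vehicle 1 (0.96) or GLP1RA 1 (0.92), and Cd3d was added in Combo vs antiIL17A without Combo 1 (-1.01). The interaction held 10 members for Combo vs Vehicle and 4 to 5 for Vehicle vs WT, where Cd4 was lost without the ATM Vehicle 3 library (0.94).

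Single calls lost without 1 library lay near the limit. In ATMs these were Cd3g in Vehicle vs WT without WT 2 (-0.96), Vehicle 1 (-0.95) or Vehicle 2 (-0.99), Lck there without WT 2 (-0.97) or Vehicle 2 (-0.95), Cd3g in GLP1RA vs Vehicle without Vehicle 1 (0.99), Lck in Combo vs GLP1RA without GLP1RA 1 (0.99), Cd3e in antiIL17A vs WT without WT 1 (0.96) or antiIL17A 1 (0.91), and Cd28 there without WT 1 (0.97), WT 2 (0.89), antiIL17A 1 (0.99) or antiIL17A 3 (0.99). With the 2 groups alone, Cd3g and Lck in Vehicle vs WT (-0.99) and Cd3e and Cd28 in antiIL17A vs WT (0.99) were also under it. In BM these were Cd3e in Combo vs WT without WT 1 (-1) or Combo 2 (-0.94), Cd28 there without WT 1 (-0.99), and Lck in Combo vs GLP1RA without GLP1RA 2 (-0.96), Combo 2 (-0.99) or Combo 3 (-0.99). Of 2760 single-gene values under all alternatives, 2705 kept their direction and side of the threshold, 26 lost and 10 gained a call, and 19 turned sign.

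Signs turned for values near 0 that were not called, each without 1 library. In BM, the range over left-out libraries was -0.09 to 0.05 (Cd3d) and -0.37 to 0.03 (Cd96) for GLP1RA vs WT, -0.09 to 0.06 (Cd3e) and -0.02 to 0.12 (Cd8a) for Vehicle vs WT, and -0.18 to 0.21 (Cd96, also 0 and 0.01) for GLP1RA vs antiIL17A. Cd4 ran from -0.03 to 0.03 (also 0.02) for antiIL17A vs Vehicle. In ATMs, it was -0.01 to 0.12 (Cd3g) for GLP1RA vs WT, -0.07 to 0.11 (Cd8b1, also -0.02) for Combo vs GLP1RA and -0.04 to 0.29 (Cd4) for GLP1RA vs antiIL17A. The interaction for Vehicle vs WT ran from -0.16 to 0.36 (Cd3d, also -0.01 and -0.02) and from -0.03 to 0.66 (Cd96). Members in BM rest on 30 to 1174 counts per library and Cd8a in ATMs of Vehicle on as few as 14, and 3 libraries per group cannot give a permutation p below 0.1.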
